A study of Mus musculus with 12 samples.

Results

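Oxidative phosphorylation (OXPHOS) subunits were taken as the genes whose symbols begin as those of respiratory complex I (Ndufa, Ndufb, Ndufc, Ndufs or Ndufv followed by a number), complex II (Sdha to Sdhd), complex III (Uqcr), complex IV (Cox4 to Cox8) or the ATP synthase, complex V (Atp5). The rule found 85 of the 20325 genes of the deposited tables, of which 37 belonged to complex I, 4 to complex II, 8 to complex III, 19 to complex IV and 17 to complex V. No measured value entered the choice. The symbols also caught Atp5s, Atp5sl and Cox4nb, which are not structural subunits, and Cox7a2l and Ndufa4l2, which resemble subunits but have other roles. They missed nuclear subunits with other symbols, such as Ndufab1 and Cyc1 (cytochrome c1 of complex III), and the subunits that the mitochondrial genome encodes were not analysed here.

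The respiratory chain passes electrons from NADH through complex I and from succinate through complex II to ubiquinone, from there through complex III to cytochrome c, and through complex IV to oxygen. Complexes I, III and IV pump protons across the inner mitochondrial membrane, and the ATP synthase uses their return to make ATP. Most subunits are encoded in the nucleus, and pluripotent stem cells are known for leaning on glycolysis more than on this chain, so its genes are often followed through reprogramming.

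RNA sequencing was done on mouse pre-iPSCs, stalled intermediates of reprogramming, after 48 h in DMSO (the vehicle control), ascorbic acid (AA, 50 μg per ml), 2i (1 μM of the MEK inhibitor PD-0325901 with 3 μM of the GSK inhibitor CHIR-99021) or AA+2i, each in biological triplicate (replicate letters A, B and C, n = 3). All groups, DMSO included, shared their origin: clonal lines grown from Nanog-GFP reporter embryonic fibroblasts that carried retroviral Oct4, Sox2, c-Myc and Klf4, kept in serum-containing medium and taken off their feeder layer for the treatment. Reads of the retroviral copies cannot be told apart from those of the endogenous genes in tables per gene, and a clonal line need not stand for other lines. Each table gave, per gene, the expected count (the number of reads that RSEM assigned to it) and the TPM (the share of a library's transcripts, scaled for transcript length and to a common total).

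The expected counts summed to between 16173322 (DMSO C) and 54392719 (AA B) per library. Pou5f1 (Oct4), the defining gene of pluripotent cells, lay between 1865 and 9673 TPM, whereas the summed TPM of 10 fibroblast markers lay between 8.80 and 21.6, with Lum at 0 in each library. The Pou5f1 level includes any retroviral reads. In DMSO, Nanog was at 2.93 to 7.14 TPM and Esrrb, a factor of the naive pluripotent state, at 0.15 to 0.31 TPM, which are low levels beside that of Pou5f1, as the label of a partly reprogrammed cell has it. With AA+2i these reached 31.7 to 40.9 and 2.33 to 2.73 TPM. Of the 12 pluripotency markers listed, Zfp42 and Lin28a were also low in DMSO, at most 3.10 and 2.44 TPM. Tdgf1 and Epcam were not, at 91.6 to 165 and 66.1 to 98.7 TPM. With AA+2i, Zfp42, Dppa5a, Cdh1 and Epcam rose by 1.72, 3.86, 1.71 and 1.10 on the log2 scale. Sox2, Klf4, Sall4 and Tdgf1 had 1.05, 0.64, 0.34 and 0.23, Pou5f1 -0.44 and Lin28a -1.02, and none of these passed the test described below. The libraries DMSO A and AA A stood apart from the rest by their low counts in genes of high GC content, which bore on the OXPHOS genes as described with the GC content below. In bulk RNA a lower share of expressing cells and less RNA per cell cannot be told apart.

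Sequences upstream of the start were in the RefSeq table of the GRCm38.p6 build for 69 of the 85 genes, with 75 start sites. Each window of 250 bases before and 50 after the start was searched on both strands for GCGCATGC (the core of the nuclear respiratory factor NRF1 motif), CCGGAAG (the ETS core that GABP, also called NRF2, recognizes) and AAGATGGC (the YY1 core), factors known for binding at nuclear genes of mitochondria. The NRF1 core was in 10 of the 75 windows, or 13.3%, against 2.71% of all 32851 windows of the table. The ETS core was in 16 windows (21.3% against 8.86%) and the YY1 core in 12 windows (16% against 2.75%). The median GC content of the windows was 57.3% for OXPHOS genes and 52.7% for all windows, and its part in these shares was not tested. A match describes letters and not a bound site. The 250 bases upstream are shown, 5′ to 3′ on the strand of the gene, for Cox7a2l, the gene that passed the test with both 2i and AA+2i, where none of these words was found, and for Ndufa11, Atp5k and Atp5l, which held the NRF1 core before the start. Capitals mark the words found.
Cox7a2l (chr17:83514334-83514583, - strand): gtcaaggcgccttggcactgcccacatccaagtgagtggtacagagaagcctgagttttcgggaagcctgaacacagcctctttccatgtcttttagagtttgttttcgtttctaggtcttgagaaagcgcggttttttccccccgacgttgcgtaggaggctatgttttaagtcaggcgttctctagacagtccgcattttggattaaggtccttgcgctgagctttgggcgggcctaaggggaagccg
Ndufa11 (chr17:56717512-56717761, + strand): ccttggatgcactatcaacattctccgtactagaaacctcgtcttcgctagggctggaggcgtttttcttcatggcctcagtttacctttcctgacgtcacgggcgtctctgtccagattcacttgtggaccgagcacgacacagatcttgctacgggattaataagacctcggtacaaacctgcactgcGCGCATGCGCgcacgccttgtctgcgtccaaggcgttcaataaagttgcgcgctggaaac
Atp5k (chr5:108434400-108434649, - strand): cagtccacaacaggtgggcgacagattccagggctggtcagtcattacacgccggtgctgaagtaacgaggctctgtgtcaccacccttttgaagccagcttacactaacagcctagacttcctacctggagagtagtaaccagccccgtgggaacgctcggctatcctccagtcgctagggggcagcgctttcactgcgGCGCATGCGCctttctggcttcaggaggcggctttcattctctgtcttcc
Atp5l (chr9:44920743-44920992, - strand): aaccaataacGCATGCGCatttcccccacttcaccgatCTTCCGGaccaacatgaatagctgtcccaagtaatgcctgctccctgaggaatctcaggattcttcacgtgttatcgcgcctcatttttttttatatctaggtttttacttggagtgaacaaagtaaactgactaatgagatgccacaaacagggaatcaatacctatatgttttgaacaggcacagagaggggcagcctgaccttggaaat

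The OXPHOS genes were among the more abundant transcripts of these cells. Their summed TPM was 22190 ± 2618 in DMSO, 23360 ± 3344 in AA, 24970 ± 2269 in 2i and 25750 ± 3156 in AA+2i (SD, n = 3), which is 1.95 to 2.91% of all transcripts of a library. The lowest library was AA A with 19520 and the highest AA+2i C with 29140, and the 4 conditions overlapped. Of the 85 genes, 70 had a mean of at least 100 TPM over the 12 libraries and 79 had at least 10 counts in each library.

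Complex V took the largest share, with 7655 to 9565 TPM per library, and its highest gene was Atp5b, the catalytic β subunit, at 1353 to 1817 TPM. Complex I summed to 5100 to 8343 TPM, led by Ndufa4 at 621 to 884 TPM, a subunit that is now assigned to complex IV. Complex IV summed to 3637 to 7560 TPM with Cox7c as its highest gene, at a mean of 751 TPM. Complex III summed to 1922 to 3137 TPM, led by the hinge protein gene Uqcrh at a mean of 673 TPM. Complex II, the only complex of the chain with no mitochondrially encoded subunit, had the lowest sum, with 676 to 882 TPM from its 4 genes. The highest over the lowest library was 2.08-fold for complex IV, 1.64-fold for complex I and 1.63-fold for complex III, but 1.31-fold for complex II and 1.25-fold for complex V. In complex III the 3 libraries of AA+2i (2327, 2428 and 3137 TPM) were all above those of DMSO (2265, 1922 and 2080 TPM). This separation hung on Uqcr11, a GC-rich gene described below that was far lower in DMSO A than in AA+2i A. Without Uqcr11 the complex III sums of DMSO and AA+2i overlap. All other pairs of conditions overlapped in every complex, and the sums were not tested.

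**Figure D1:**
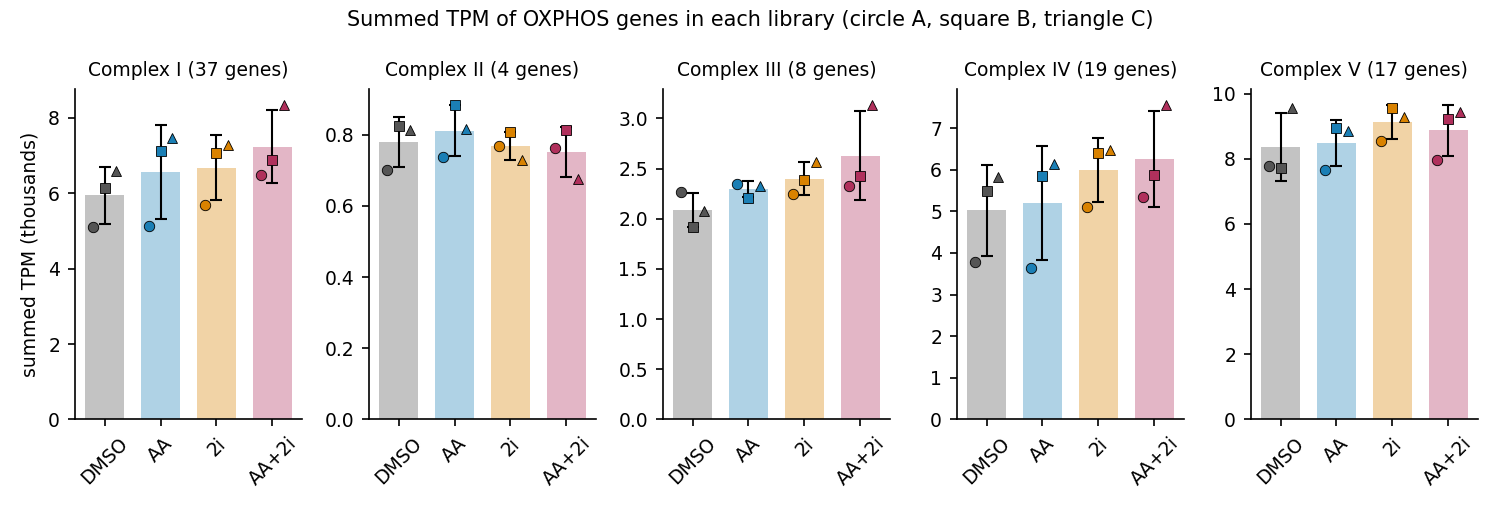
Summed TPM (in units of 1000, linear axis from 0) of the OXPHOS genes of each respiratory complex in DMSO, AA, 2i and AA+2i. Points are the 3 libraries of a condition, bars their mean and error bars their SD. The conditions overlap in each complex except complex III, where the AA+2i libraries (2327 to 3137 TPM) lie above those of DMSO (1922 to 2265 TPM). Without the gene Uqcr11 these overlap as well. Replicate A lies lowest in complexes I and IV in all conditions.

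The 4 genes of complex II show how the libraries varied. Sdha, which encodes the flavoprotein that oxidizes succinate, stood at 223, 264 and 187 TPM in DMSO A, B and C and at 195, 198 and 138 TPM in AA+2i. Sdhb, the iron-sulphur subunit, stood at 88.4, 156 and 140 TPM in DMSO and at 152, 137 and 163 TPM in AA+2i. The membrane anchors Sdhc and Sdhd had log2 fold changes with AA+2i of 0.30 and 0.10. Sdha was lower with AA+2i than with DMSO by 0.14 on the log2 scale and Sdhb higher by 0.47, with standard errors of 0.18 and 0.31, so that neither difference passed the test and the libraries of both groups overlapped.

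Subunits with several isoforms were represented mainly by the forms known from most tissues. Cox4i1, the ubiquitous form of subunit 4, had 272 to 970 TPM, whereas its lung form Cox4i2 had at most 0.36 TPM. Cox6a1 had a mean of 575 TPM and its muscle form Cox6a2 was listed at 0 in each library. Cox8a had a mean of 542 TPM, the muscle form Cox8b at most 0.39 TPM, and Cox8c and Cox7b2, which are known from testis, were listed at 0 in each library. These 5 rare forms, all of complex IV, were the genes that did not pass the filter of at least 10 counts in at least 3 libraries, so 80 genes were tested. The muscle form Cox7a1 was low but present, at 1.53 to 12.3 TPM, beside 265 to 476 TPM of Cox7a2.

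An exception to this pattern was Cox6b2, which is known as the testis form of subunit 6b. It had 67.6, 308 and 222 TPM in DMSO and 257, 230 and 289 TPM in AA+2i, with a mean over the 12 libraries of 238 TPM beside 685 TPM of Cox6b1. The low values were those of DMSO A and AA A, the latter with 67.6 TPM. Atp5g1, Atp5g2 and Atp5g3 encode the same mature c subunit of the rotor of the ATP synthase and had means of 183, 757 and 857 TPM. The division of reads among these genes rests on the expected counts and is uncertain where their transcripts are alike, and that likeness was not computed.

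The comparison of each treatment with DMSO asked which genes had moved by day 2 of the treatment. A gene was called at an adjusted p under 0.05 by edgeR's quasi-likelihood test with Benjamini-Hochberg adjustment over all 13400 genes tested. The 3 comparisons share the DMSO libraries, so their values are not independent of each other. With AA, none of the 80 OXPHOS genes was called in either direction (of all genes tested, 0.866% were called up and 0.470% down), with 1 gene at an unadjusted p under 0.05. DESeq2 and limma called none either (of all genes, 3.39% by DESeq2 and 1.42% to 1.70% by limma). With 2i, 1 was called up and none down (all genes, 1.59% up and 2.83% down). With AA+2i, 2 were called up and none down (all genes, 3.93% up and 4.41% down), with 10 at an unadjusted p under 0.05. The share of all genes at an unadjusted p under 0.05 is not set beside such counts, here or below, so they are not read as an excess. At 1 and 2 genes of 80, the called shares of 1.25% with 2i and 2.50% with AA+2i lay near the background of all genes called up, and the difference was not tested.

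Cox7a2l was the gene called with both 2i and AA+2i. It encodes a relative of Cox7a2, also called SCAFI, that joins complexes III and IV in supercomplexes, and lies at chr17:83901259-83913673 of the minus strand in mm9. Its TPM was 232, 239 and 266 in DMSO A, B and C and 284, 329 and 289 in AA. It was 371, 383 and 353 in 2i and 365, 392 and 324 in AA+2i. The 6 libraries with 2i were all above the 3 of DMSO, and so were those of AA in TPM, although by a smaller margin and not in counts scaled to library size. The fitted log2 fold change was 0.77 with 2i (SE 0.16, adjusted p = 0.0221, edgeR), 0.75 with AA+2i (SE 0.16, adjusted p = 0.0154) and 0.31 with AA (SE 0.16, adjusted p = 0.642). Its counts were even among the libraries of a condition, with a within-condition SD of 0.136 on the log2 scale. Over the alternative settings its adjusted p ranged from 3.22e-05 to 0.512 with 2i and from 2.97e-05 to 0.309 with AA+2i, and without replicate A, B or C its log2 fold change stood at 0.81, 0.64 and 0.87 for 2i and at 0.78, 0.64 and 0.86 for the combination. It was not called in these smaller models, in which no OXPHOS gene was called.

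Its paralogues did not share this pattern in their values. Cox7a2 was at 320, 321 and 476 TPM in DMSO and at 418, 416 and 341 TPM in 2i, with a log2 fold change of 0.24 (SE 0.22, adjusted p = 0.614). It had a log2 fold change of -0.07 with AA+2i. Cox7a1 had one of -0.02 with 2i and of 1.04 with AA (SE 0.61, adjusted p = 0.742). The differences in fold change between the paralogues were not tested.

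Ndufa4l2 was the other gene called with AA+2i. It encodes a paralogue of Ndufa4 known to be induced by hypoxia and to lower complex I activity, and lies at chr10:126951995-126954208 of the plus strand in mm9. Its TPM was 20.0, 57.7 and 29.5 in DMSO A, B and C and 35.2, 125 and 127 in AA. It was 30.3, 49.4 and 23.1 in 2i and 149, 85.0 and 127 in AA+2i. The libraries of AA+2i were all above those of DMSO, 2 of the 3 AA libraries were, and those of 2i overlapped with DMSO. The log2 fold change was 2.01 with AA+2i (SE 0.52, adjusted p = 0.038, edgeR), 1.51 with AA (SE 0.52, adjusted p = 0.282) and 0.16 with 2i (SE 0.51, adjusted p = 0.873). Over the alternative settings its adjusted p with AA+2i ranged from 0.00208 to 0.304, and without replicate A, B or C its log2 fold change was 1.63, 2.65 and 1.82 and was not called. Ndufa4 itself was at 805, 621 and 771 TPM in DMSO and 663, 884 and 724 TPM in AA+2i, with a log2 fold change of 0.24 (SE 0.19).

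**Figure D2:**
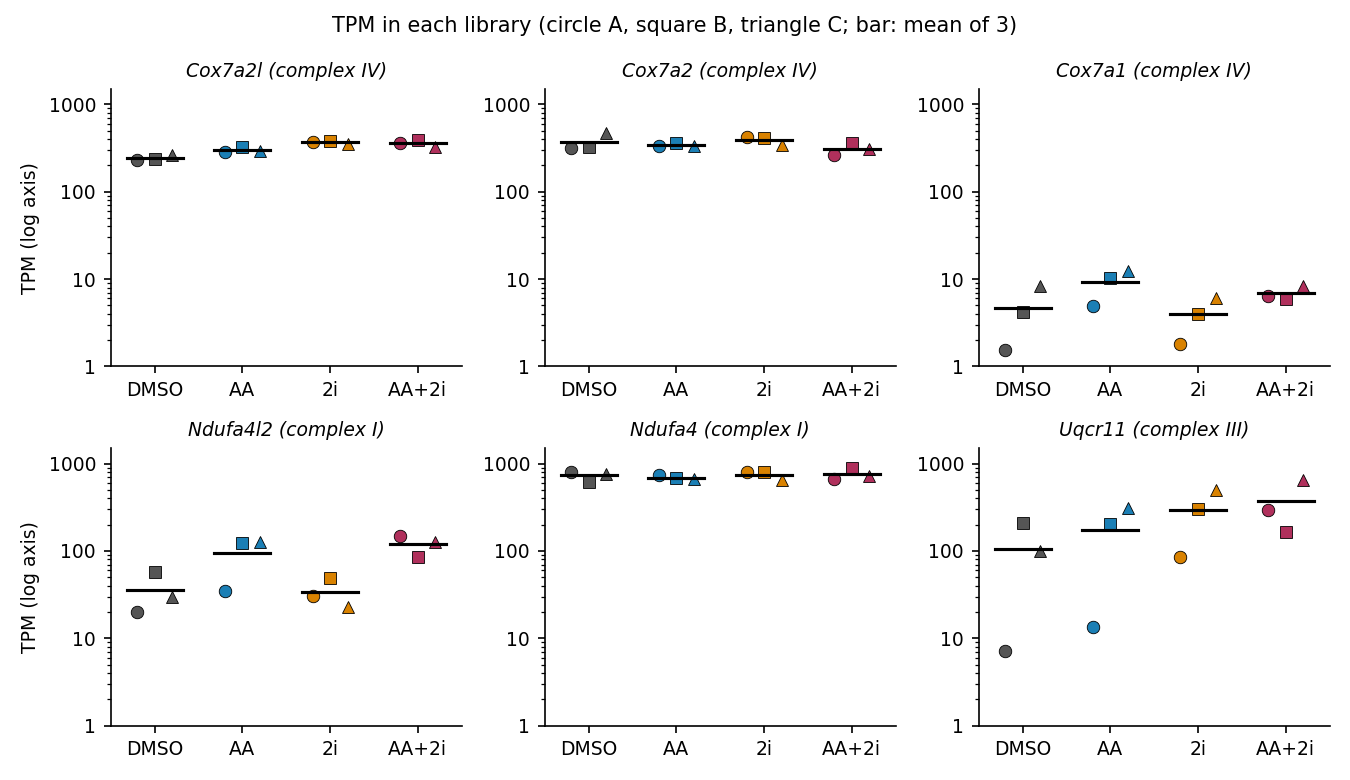
TPM (log axis from 1) of Cox7a2l and its paralogues Cox7a2 and Cox7a1, of Ndufa4l2 and its paralogue Ndufa4, and of Uqcr11, in each of the 12 libraries. Points are single libraries and bars the mean of 3. Cox7a2l is higher in the 6 libraries with 2i than in DMSO, Ndufa4l2 is higher in the AA+2i libraries, and Uqcr11 is at 7.18 and 13.3 TPM in DMSO A and AA A against 85.9 to 657 TPM elsewhere.

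No other OXPHOS gene passed the test in this model, which has no term for the replicate letter. Among those with the smallest p, Ndufv3, an accessory subunit near the flavin site of complex I, stood at 57.2, 101 and 98.6 TPM in DMSO and at 180, 136 and 192 TPM in AA+2i. These libraries did not overlap, and the log2 fold change was 1.19 (SE 0.37, adjusted p = 0.0731). Cox5b, a structural subunit of complex IV, stood at 261, 262 and 421 TPM in DMSO and at 370, 429 and 646 TPM in AA+2i, with a log2 fold change of 0.84 (adjusted p = 0.124) and overlapping libraries. Ndufb10 and Ndufb9, accessory subunits of the membrane arm of complex I, had log2 fold changes of 0.74 and 0.49 with AA+2i and of 0.60 and 0.46 with 2i. Atp5j2, the f subunit of the ATP synthase, had 0.66 with 2i (adjusted p = 0.339), and Cox7b, another small subunit of complex IV, -0.35 with AA (adjusted p = 0.742). With the GC and length curves described below taken off, the values with AA+2i were -0.27 for Cox5b, -0.26 for Ndufb10 and -0.19 for Ndufb9, so that their direction turned, and those with 2i were -0.11 for Ndufb10, -0.03 for Ndufb9 and 0.35 for Atp5j2.

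Short of single calls, the fitted changes of the OXPHOS genes leaned upward. With AA, 58 of the 80 were above 0 and their median log2 fold change was 0.16, with 2i 69 and 0.34, and with AA+2i 70 and 0.48. The medians of all genes tested were -0.01, -0.02 and -0.02. By complex, the medians with AA+2i were 0.57 for complex I, 0.20 for complex II, 0.55 for complex III, 0.62 for complex IV and 0.17 for complex V. This order was not the same in each replicate. Against the DMSO library of the same letter, complex III had medians of 0.52, 0.16 and 0.67 in A, B and C, and complex V 0.17, 0.65 and 0.20. The catalytic subunits of the ATP synthase were among the steadiest, with 0.06 for Atp5b and 0.15 for Atp5a1 (SE 0.18 and 0.17). In complex III the core gene Uqcrc1 was at 0.77 and the other core gene Uqcrc2 at -0.42, with neither called (adjusted p = 0.192 and 0.28). With both curves taken off these were at -0.10 and -0.15, and Atp5b and Atp5a1 at -0.11 and -0.27.

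**Figure D3:**
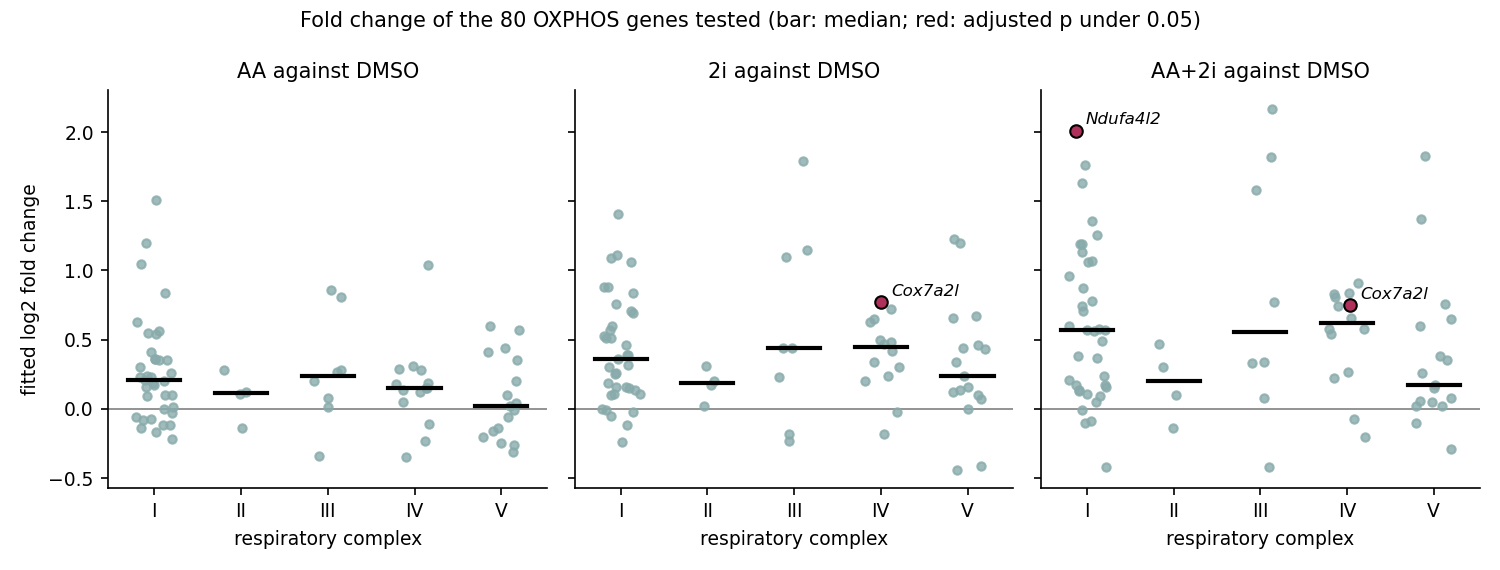
Fitted log2 fold change against DMSO of the 80 OXPHOS genes tested, by respiratory complex, for AA, 2i and AA+2i. Each point is a gene, black bars are medians and red points passed an adjusted p under 0.05. Most points lie above 0 with AA+2i, where the medians run from 0.17 to 0.62, and Cox7a2l and Ndufa4l2 are the only called genes.

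The interaction asked whether the change with AA+2i differed from the sum of the changes with AA and with 2i. None of the 80 genes was called by edgeR, DESeq2 or limma, and none had an unadjusted p under 0.05 in these tests. Of all genes tested, 0.0149% were called by edgeR. The smallest p among OXPHOS genes was that of Cox7a2l, with an interaction of -0.33 (SE 0.23, adjusted p = 1.0). Atp5o, which encodes the stalk subunit OSCP, and Uqcrb, a subunit of complex III, followed with -0.45 and 0.60, then Cox7b with 0.37 and Ndufc1 of complex I with 0.45.

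The libraries differed in their counts of GC-rich transcripts, and the OXPHOS genes were therefore ordered by GC content. The 80 genes ran from 38.4 to 60.8% GC, with a median of 51.6% against 50.3% over all genes tested, and 20 of them had 55% or more. The summed TPM of these 20 ran from 2363 in DMSO A to 8685 in AA+2i C, a 3.68-fold range, against a 1.24-fold range for the 11 genes under 45% GC. Uqcr11, which encodes the smallest subunit of complex III and has 58.9% GC, was at 7.18, 209 and 99.3 TPM in DMSO A, B and C and at 294, 165 and 657 TPM in AA+2i. Ndufb7, an accessory subunit of the membrane arm with 59.7% GC, was at 4.24, 128 and 65.5 TPM in DMSO, and Ndufs7, an iron-sulphur subunit of the complex I core with 59.6% GC, at 5.43, 104 and 34.6 TPM. DMSO A was the lowest DMSO library for each of these genes, and DMSO B was above the lowest AA+2i library.

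The spread within conditions followed. The within-condition SD on the log2 scale was 0.135 for Atp5a1 and 0.151 for Atp5b, but 1.96 for Uqcr11 and 2.03 for Ndufb7. With this spread, a log2 fold change of 2.17 for Uqcr11 with AA+2i carried a standard error of 1.18 (adjusted p = 0.265, edgeR), and one of 1.83 for Atp5d, the δ subunit of the central stalk, one of 0.88 (adjusted p = 0.222), whereas 0.75 sufficed for Cox7a2l. By GC content, the median log2 fold change with AA+2i was 0.11 for genes under 45% GC, 0.23 from 45 to 50%, 0.47 from 50 to 55% and 1.09 at 55% or more. Across the 80 genes the correlation of the fold change with GC content was 0.60 by Pearson's r and by Spearman's rho with AA+2i, 0.54 and 0.48 with AA, and 0.53 and 0.51 with 2i, as a description over genes that share the same 12 libraries.

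A curve of the deviation of each library from the mean of the 12 against GC content, and another against transcript length, was fitted to the genes that are not OXPHOS genes. At the 20 genes with at least 55% GC the median deviation was -1.53 in DMSO A, -1.22 in AA A and 1.26 in AA+2i C on the log2 scale, where the GC curve of the other genes had medians of -1.33, -1.08 and 0.80. At the genes under 45% GC the same libraries had 0.17, -0.14 and 0.29, and the curve 0.72, 0.56 and -0.49. The OXPHOS transcripts are also short, with a median of 680 bases against 2795 for all genes tested, and 68.8% of them, against 6.67% of the other genes, had under 1000 bases.

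Over the 12 libraries, the median deviation of all 80 genes ran from -0.45 in DMSO A to 0.53 in AA+2i C. It went with the length curve (Pearson's r = 0.969, permutation p = 1e-05, the smallest that 100000 permutations give, adjusted 2e-05; Spearman's rho = 0.972, p = 2e-05, adjusted 4e-05) and with the GC curve (r = 0.848, permutation p = 0.00026; rho = 0.734, p = 0.0084, with the same values after adjustment over the 2 relations computed). Without DMSO A and AA A, the libraries farthest from the median of either curve, r was 0.945 and 0.732. With the mean of each condition set to 0, so that only differences between replicates were left, r was 0.958 and 0.846. The permutations took the 12 libraries as exchangeable, although they share conditions and letters, so these p-values may be too small. Both curves and the deviations come from the same libraries, and a part of one in the other was not tested. At the OXPHOS genes the GC curve ran only from -0.13 to 0.07 in median, less than the deviations, while the length curve ran from -0.60 to 0.63.

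**Figure D4:**
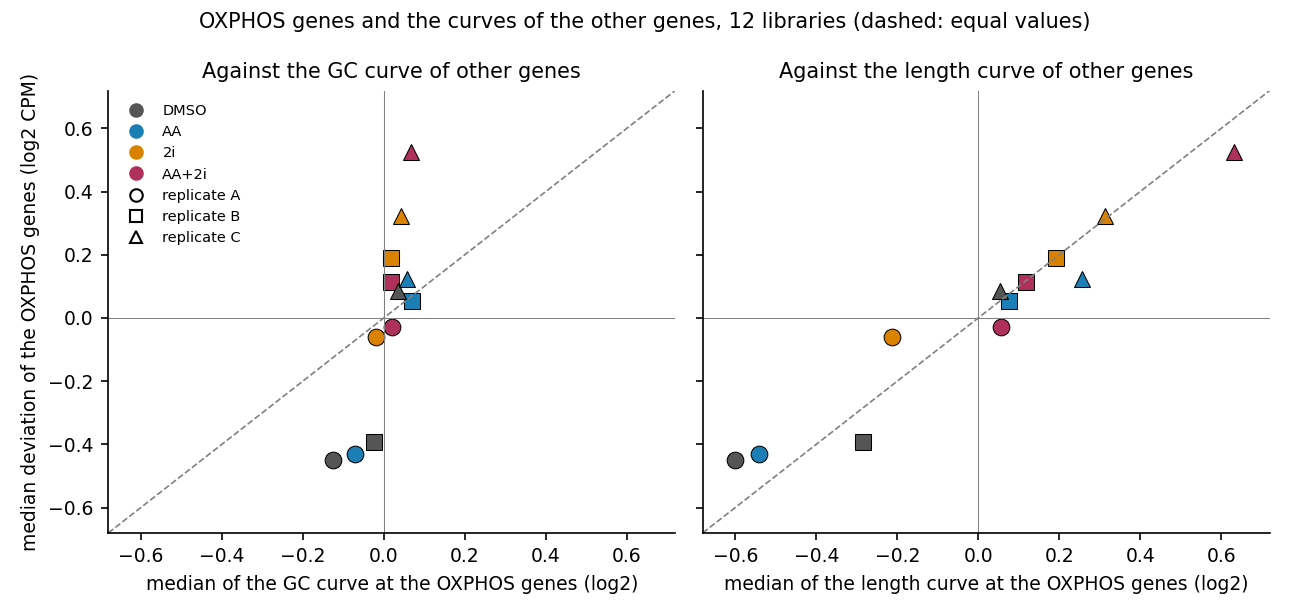
Median deviation of the 80 OXPHOS genes from the mean of the 12 libraries (log2 CPM) against the median, at the same genes, of the GC curve and of the length curve fitted to the other genes of the library. Points are libraries, coloured by condition and shaped by replicate, and the dashed line marks equal values. The libraries follow the dashed line for length, with r = 0.969, and a steeper course for GC content.

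With the GC curve of each library as an offset in the model, the OXPHOS genes had medians, in the order AA, 2i and AA+2i, of 0.10, 0.26 and 0.38. Of these genes 0, 2 and 5 were called, all upward (of all genes, 4.08%, 12.1% and 19.7% in either direction). With both curves the medians were -0.02, 0.06 and 0.01, 40, 48 and 41 of the 80 genes were above 0, and 0, 2 and 4 genes were called (of all genes, 4.79%, 13.9% and 21.5%). With AA and both curves, 6 genes had an unadjusted p under 0.05. By complex, the medians with AA+2i were 0.11, 0.03, 0.24, -0.10 and -0.12 for complexes I to V. Pearson's r of the fold change with AA+2i was then -0.05 with GC content and -0.01 with length. In these models the curves were fitted to all genes tested, the OXPHOS genes included. The upward lean of the OXPHOS genes was not seen once both curves were taken off. Short genes of other kinds leaned alike: the 888 other genes under 1000 bases had a median of 0.48 with AA+2i, beside 0.58 for the 55 OXPHOS genes of that length, while the 25 OXPHOS genes of 1000 bases or more had 0.15. Whether treatment or library preparation moved the curves cannot be told apart where they differ between conditions.

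**Figure D5:**
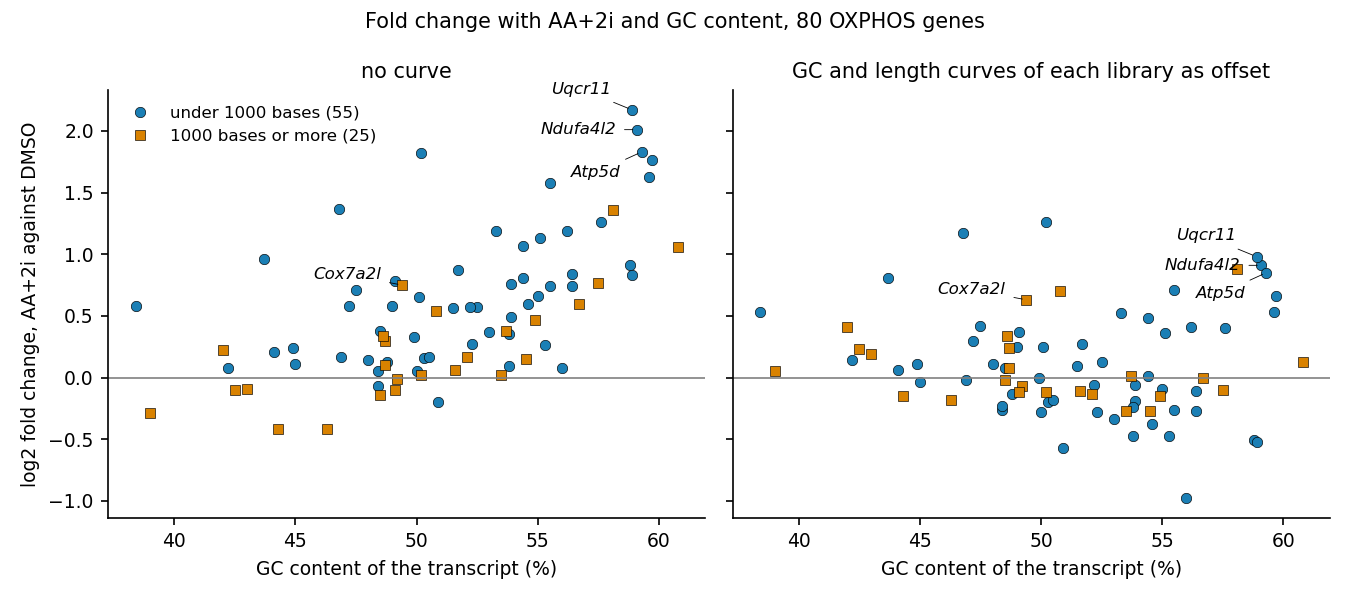
Log2 fold change with AA+2i against GC content of the transcript (percent) for the 80 OXPHOS genes, with no curve and with the GC and length curves of each library as an offset. Each point is a gene, shaped by transcript length. The rise with GC content (r = 0.60) is not seen with both curves (r = -0.05), and Cox7a2l stays near its place.

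Cox7a2l, with 49.4% GC and 1080 bases, kept its calls with both curves, at 0.65 with 2i (adjusted p = 0.00102) and 0.63 with AA+2i (adjusted p = 0.000805), and without the DMSO A and AA A libraries, at 0.76 and 0.74 (adjusted p = 0.0318 and 0.0262). With the length curve alone it was at 0.49 and 0.35 and was not called (adjusted p = 0.226 and 0.284). Ndufa4l2, with 59.1% GC, had 2.01 with no curve, 1.13 with the GC curve (adjusted p = 0.0416) and 0.91 with both (adjusted p = 0.129), and 1.74 without the DMSO A and AA A libraries (adjusted p = 0.0206). Beside these, both curves gave calls with AA+2i for Ndufv3 at 0.41 (adjusted p = 0.0384), for Uqcrfs1, the Rieske iron-sulphur protein of complex III, at 0.34 (adjusted p = 0.0456) and for Atp5g2 at -0.47 (adjusted p = 0.0225), and with 2i for Atp5sl at -0.63 (adjusted p = 0.0455). Without the DMSO A and AA A libraries Ndufv3 was called as well, at 0.94 (adjusted p = 0.0392). Each of these adjusted p-values is from edgeR, and all of these genes, Cox7a2l and Ndufa4l2 included, were called in some settings only.

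The genes that serve the chain were set beside its subunits. Of all genes tested, 1.34%, 4.42% and 8.34% were called in either direction with AA, 2i and AA+2i. Of 28 assembly factors tested, none was called in any of the comparisons, and, in the order AA, 2i and AA+2i, 0, 2 and 4 had an unadjusted p under 0.05. Their medians were -0.05, 0.07 and -0.04. Cox17, a copper chaperone of complex IV, was the most abundant and stood at 92.9, 105 and 93.1 TPM in DMSO and at 125, 138 and 289 TPM in AA+2i, with a log2 fold change of 1.19 (SE 0.47, adjusted p = 0.148). None of 11 genes of electron carriers and of the inhibitor of the ATP synthase was called, with medians of 0.01, 0.17 and 0.21. Cycs, which encodes cytochrome c, had -0.03 with AA+2i, and Atpif1, the inhibitor, 0.21.

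None of 13 genes of the TCA cycle was called, and their medians were -0.08, 0.01 and -0.09. Mdh2, malate dehydrogenase, the most abundant, had 0.75 with AA+2i (SE 0.35, adjusted p = 0.209), and Cs, citrate synthase, -0.09. With both curves taken off, Mdh2 and Cs were at 0.11 and -0.04. None of the 76 mitochondrial ribosomal protein genes was called (of all genes, 8.34% with AA+2i), but their medians of 0.14, 0.31 and 0.33 lay near those of the OXPHOS genes. With both curves, 13.9% of all genes were called with 2i and 21.5% with AA+2i. With both curves and AA+2i, 1 gene of the TCA cycle (Ogdh, a part of the oxoglutarate dehydrogenase complex, at 0.47 with an adjusted p of 0.00569) and 1 of the ribosome (Mrpl9 at 0.42, adjusted p = 0.036) were called up, and 1 assembly factor (Tmem126b at -0.65 with an adjusted p of 0.0138) and Atpif1 (-0.40, adjusted p = 0.0196) were called down, while the median of the ribosomal genes was 0.07. Of 14 regulators of mitochondrial genes, Esrrb was the only gene called without the curves, with AA+2i, where it had a log2 fold change of 3.70 (SE 0.54, adjusted p = 0.00211, edgeR) from a low level. Nrf1, Gabpa and Yy1, the factors of the NRF1, ETS and YY1 words above, had 0.18, -0.87 and -0.43 with AA+2i (adjusted p = 0.519, 0.183 and 0.377, edgeR). Ppargc1a, a coactivator of mitochondrial biogenesis, had at most 0.02 TPM. With both curves taken off, Nrf1, Gabpa and Yy1 were at 0.17, -0.22 and -0.72. With both curves, Esrrb was at 3.49 with AA+2i (adjusted p = 0.000516), Stat3 was also called up at 0.35 (adjusted p = 0.0486) and Myc, whose counts include any retroviral reads, down at -1.22 (adjusted p = 0.0352). With 2i and both curves, Ppargc1b, a relative of Ppargc1a, was called up at 1.40 (adjusted p = 0.0293), and so were Mrpl3 and Mrpl4 of the mitochondrial ribosome at 0.41 and 0.60 (adjusted p = 0.02 and 0.0476). Ppargc1b was at a very low level, with 0.07, 0.28 and 0.29 TPM in DMSO and 0.47, 0.59 and 0.67 TPM in 2i. Without the curves it was not called (adjusted p = 0.217, edgeR).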

How the data were processed

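Reads were trimmed, filtered by quality and mapped by the authors with Bowtie to RefSeq genes of mm9, and RSEM 1.2.4 gave an estimate per gene, per the labels and the methods of the study. The deposited tables hold the expected count, which is not normalized and need not be whole, and the TPM that the authors scaled within each library. The FPKM that the authors also deposited was used only to restore 1 malformed TPM cell as 40.6. Tables of fold changes from the authors were not used. The study's EB-seq was not installed, so edgeR 4.0.16 (R 4.3.3) was applied to the rounded expected counts. Genes below 10 counts in all but 2 or fewer libraries were left out, library sizes were scaled by RLE factors, and the quasi-likelihood model held the 4 condition means (8 residual degrees of freedom). Each standard error was obtained by dividing the size of the fitted change (log2) by the root of its F statistic, and so restates the test. The curves are robust loess fits (span 0.4) of the log2 CPM deviation of a library against the GC content or the log length of the transcript, and 13304 of the 13400 genes tested had a GC content. The curves set beside the OXPHOS genes were fitted without them, and those used as offsets were fitted with them. Alternatives were TMM factors, DESeq2 1.42.0, limma 3.58.1 on log2(TPM + 1) and log2(TPM + 0.1), other count filters, only the 2 groups compared, the replicate letter as a block, the curves as offsets, and each replicate letter left out. Some of the models were run on simulated counts with 200 genes changed with AA+2i, with and without a tilt by GC content. No bias by length was simulated, so these runs cannot speak for the length curve. The length curve alone and the curves with the block were not run on them. Figures and correlations used Python 3.11.15, and permutation tests were two-sided with 100000 permutations. Gene positions are those of mm9, and promoter windows those of RefSeq on GRCm38.p6. The genes and lists were chosen with earlier results of these data known. Genes were named where called, or else as the 5 with the smallest p per comparison, as the highest and lowest of each complex by mean TPM, and as isoforms and core subunits set out by symbol. Uqcr11, Ndufb7, Ndufs7 and Atp5d were named after their values were seen, and so were Uqcrfs1, Atp5sl and the genes of the lists called with the curves. Of 45 assembly factors listed, 29 were found by symbol in the tables and 28 were tested. Counts of reads measure the libraries, and with 3 libraries per condition the p-values rest on the spread between biological replicates.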

Additional observations from a re-analysis of the deposited data

How the results depend on the processing

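Directions were kept in most settings, and the number of called OXPHOS genes was small in those without the replicate block. With 2i, where 1 gene was called, 0 were called in the model of only the 2 groups compared and with the length curve alone (of all genes, 1.48% and 5.41%). With the GC curve and with the GC and length curves 2 were called (of all genes, 12.1% and 13.9%). With AA+2i, where 2 were called, 1 was called by limma with either pseudocount (of all genes, 8.31% and 8.42%). The same count came with only the 2 groups compared and with the length curve (of all genes, 4.53% and 9.39%). The GC curve gave 5 and the GC and length curves 4 (of all genes, 19.7% and 21.5%). Leaving out replicate A, B or C in turn gave 0 calls in each comparison and in the interaction, with 2 libraries per condition. Of all genes, 0.00 to 0.248% were then called with AA, 0.0855 to 2.04% with 2i and 0.140 to 4.85% with AA+2i. The medians over these fits were 0.01 to 0.23 with AA, 0.22 to 0.39 with 2i and 0.45 to 0.52 with AA+2i, and the means of the summed TPM 20860 to 23470 in DMSO, 22250 to 25280 in AA, 24290 to 26280 in 2i and 24050 to 27170 in AA+2i. The median with 2i fell to 0.06 with the GC and length curves, with and without the block, and to 0.01 with the length curve. The median with AA+2i was 0.27 by limma with either pseudocount (all genes -0.15 and -0.18), 0.38 with the GC curve, 0.40 with the GC curve and the block, 0.01 with the GC and length curves, 0.03 with these and the block, -0.06 with the length curve, and 0.40 without DMSO A and AA A. These compare with an SD of 0.06 over the letters, each AA+2i library taken against the DMSO library of its letter. That SD treats the letters as pairs, which the labels do not state. Taken singly, the median deviations were -0.448, -0.392 and 0.084 in DMSO A, B and C and -0.027, 0.115 and 0.525 in AA+2i.

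With the replicate block, 0 genes were called with AA (6 at an unadjusted p under 0.05), 4 with 2i and 25 with AA+2i, that is 31.2% of the OXPHOS genes beside 31.6% of all genes. Among the genes whose fold change is given above as not called, the block called Ndufv3, Cox5b, Ndufb10, Ndufb9, Uqcrc1, Uqcr11 and Atp5d with AA+2i (adjusted p from 0.00617 to 0.0367, edgeR) and Ndufb9 and Atp5j2 with 2i (0.0382 and 0.0444). With the GC curve and the replicate block the counts were 3, 13 and 28 (35% beside 36.2% of all genes with AA+2i), and with the GC and length curves and the replicate block 1, 3 and 11 (13.8% beside 34.0%). The labels do not say that the letters pair the samples: deviations of same-letter libraries correlated at 0.401 in mean (-0.588 to 0.894), above 0.1 in 15 of 18 pairs, and 11 of 12 libraries were closest to one of their own letter. The settings with the length curve alone, with both curves and the block, and without DMSO A and AA A were chosen after seeing the data. Of 334 alternative values of 20 results on single genes, 302 kept their side of the threshold, 16 lost and 16 gained it, and 8 changed sign without a call. The cause was not tested in any of these. At the depth of 16173322 to 54392719 counts per library, 79 of the 85 genes had at least 10 counts in each library, and the within-condition SD of the genes tested ran from 0.135 to 2.04 on the log2 scale.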
